A study of Mus musculus with 5 samples.

Results

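Orosomucoid, also called alpha-1-acid glycoprotein, is a plasma protein that hepatocytes make and secrete, and in the mouse it is encoded by Orm1, Orm2 and Orm3. These 3 genes were taken by symbol from a table of 23793 genes measured by RNA-seq in whole liver, and each stood on 1 row of it. The table compares 3 livers with the genotype Lifr fl/fl;Alb-Cre, called Alb-Cre livers here, with 2 Lifr fl/fl livers, called control livers, all from C57BL/6 mice 12 weeks old with no treatment named in the labels. Both groups carry homozygous loxP-flanked alleles of Lifr, the receptor of leukemia inhibitory factor. The Alb-Cre mice, labelled Lifrfl/fl;Crealb/alb, carry in addition a Cre recombinase driven by the albumin promoter, which deletes part of Lifr in hepatocytes and leaves it in the other cells of the liver. No group with Cre alone is among the samples, so the effects of Cre and of the deletion cannot be told apart. The 3 genes were chosen because their values in this comparison were already known to be high, so those values are described here and no test of them is given.

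Orosomucoid belongs to the lipocalin family, whose members carry small hydrophobic molecules in a barrel-shaped pocket, and it binds many basic drugs in plasma. It is among the most heavily N-glycosylated and sialylated plasma proteins. It is an acute phase protein: interleukin-1, cytokines of the interleukin-6 type that signal through gp130, and glucocorticoids raise its synthesis in liver. C/EBP factors, in particular C/EBPβ, bind its promoter, and LIFR is itself a partner of gp130.

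The 3 genes lie side by side on the plus strand of chromosome 4 in GRCm38, in the order Orm1, Orm3, Orm2. The GENCODE M21 annotation places Orm1 (XLOC_014165) at 63344560 to 63348163, Orm3 (XLOC_014166) at 63356162 to 63359511 and Orm2 (XLOC_014167) at 63362449 to 63365878. Each has 6 exons. The coding sequences, stop codon included, are 624 bases long in Orm1 and in Orm2 and 621 bases in Orm3. Orm1 and Orm2 are identical at 561 of 624 aligned coding bases (89.9%), Orm2 and Orm3 at 549 of 621 (88.4%), and Orm1 and Orm3 at 537 of 621 (86.5%). A read is assigned by positions at which the 3 genes are not all alike, though some such positions set only 1 gene apart. The stretch of 60 coding bases shown was picked for holding the most positions that are not all alike without a gap, 25. It is therefore less alike between the genes than the coding sequences as a whole. Capitals mark the positions that are not all alike. The stretch covers bases 138 to 197 of Orm1 and Orm2 and bases 135 to 194 of Orm3, counted from the A of the start codon.
Orm1: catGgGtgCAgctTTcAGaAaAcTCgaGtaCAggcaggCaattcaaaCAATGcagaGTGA
Orm2: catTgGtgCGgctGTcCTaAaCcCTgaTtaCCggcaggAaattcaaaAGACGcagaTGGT
Orm3: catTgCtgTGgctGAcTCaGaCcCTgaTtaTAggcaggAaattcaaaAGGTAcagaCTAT

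Because only uniquely mapped reads were kept, the likeness of the 3 transcripts limits which reads count towards each gene. Of all 50-base stretches of the transcript, 79.6% of those of Orm1, 77.3% of those of Orm2 and 96.4% of those of Orm3 occur in no transcript of another annotated gene. At 100 bases the shares are 93.0%, 93.0% and 100%. The stretches that Orm1 shares at 50 bases are found in Orm2 and Orm3, and those of Orm2 also in Gm11212, an annotated gene between Orm1 and Orm3. Orm3 is thus the best separated of the 3 in sequence, although it is the lowest in level. The read length is not given in the sources used here, and the part of shared reads in the values below was not tested.

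The promoters of Orm2 and Orm3 are shown because only these 2 were available. No promoter of Orm1 was at hand for comparison. They are the 250 bases before the RefSeq start in GRCm38.p6, at chr4:63362199-63362448 for Orm2 and chr4:63355908-63356157 for Orm3, both on the plus strand. Of the 3 members, 2 matched the RefSeq promoter table, and that of Orm1 is not shown. Capitals mark matches to the C/EBP motif TTGCNNAA, to the glucocorticoid receptor half-site AGAACA and to the TATA box TATAAAA, each searched on both strands.
Orm2: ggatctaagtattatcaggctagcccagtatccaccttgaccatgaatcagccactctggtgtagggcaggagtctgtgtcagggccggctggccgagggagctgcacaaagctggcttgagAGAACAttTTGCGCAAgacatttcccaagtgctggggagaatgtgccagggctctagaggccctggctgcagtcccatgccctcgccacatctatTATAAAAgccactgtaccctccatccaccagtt
Orm3: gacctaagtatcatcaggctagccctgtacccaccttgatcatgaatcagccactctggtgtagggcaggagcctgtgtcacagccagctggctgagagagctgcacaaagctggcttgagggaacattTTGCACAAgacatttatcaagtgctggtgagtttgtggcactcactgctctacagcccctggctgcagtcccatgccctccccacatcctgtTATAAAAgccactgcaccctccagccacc
The aligned promoters are identical at 218 of 245 bases (89.0%). Each holds a C/EBP match, TTGCGCAA at 120 to 113 bases before the start of Orm2 and TTGCACAA at 121 to 114 bases before that of Orm3. Each also holds a TATA box, 33 to 27 bases before the start in Orm2 and 29 to 23 bases in Orm3. AGAACA lies 128 to 123 bases before the start of Orm2, and the window of Orm3 has no match to it. Neither window has a match to TTCNNNGAA, a STAT motif, or to an NF-κB motif searched as GGG, any 5 bases and CC. Of 32851 mouse promoters of the same length, 9.56% hold TTGCNNAA, 4.98% TATAAAA, 16.1% AGAACA, 7.02% TTCNNNGAA and 45.8% the NF-κB motif. These are matches of letters and no measure of binding.

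Levels are FPKM, fragments mapped to a gene scaled to its length and to the total mapped. Being per length, they can be set side by side between genes. Between the Orm genes a limit remains, as only uniquely mapped reads were kept and the unique part of the transcript differs. Log2 fold changes are differences between the group means of log2(FPKM + 0.1), Lifr fl/fl;Alb-Cre minus Lifr fl/fl, and understate the change of low genes. Limma was run over the 11687 genes that averaged 0.5 FPKM or more. The Orm genes are among them and count in the shares over all tested genes, but no test of them is given. In counts, "higher" or "lower" means a Benjamini-Hochberg adjusted p under 0.05. By this fit 42 genes (0.359%) were higher and 24 (0.205%) lower in Alb-Cre livers, and the median gene moved by 0.03. An unadjusted p under 0.05 was reached by 1126 of the 11687 genes (9.63%), the share against which such counts are to be read. The deposited values stand in ascending text order within each group in all 15586 genes with distinct values, so a column follows no single mouse and no value is tied to a mouse here. The sequencing depth is unknown. Lifr had 32.8, 44.3 and 54.8 FPKM in Alb-Cre livers, against 132 and 151 FPKM in control livers, a log2 fold change of -1.71 ± 0.19 (SE; limma, adjusted p = 0.0045). That call was lost without the filter on low values (adjusted p = 0.062) and when 1 control value per gene was left out (up to 0.25). Of 14 hepatocyte markers, 13 were tested and none was higher or lower by limma (1 had an unadjusted p under 0.05), and Alb is listed at 0 in all 5 libraries, as are Trf and Apoe.

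Orm1 was the most abundant of the 3 genes in both groups, Orm2 had the largest fold change, and Orm3 was the scarcest. Orm1 had 1128, 1477 and 1724 FPKM in Alb-Cre livers, against 739 and 742 FPKM in control livers. The lowest Alb-Cre value was 1.52 times the highest control value, so the groups did not overlap, and the controls were almost equal. The means were 1443 ± 299.6 FPKM (SD, n = 3) and 740.3 ± 2.06 FPKM (SD, n = 2), a ratio of 1.95 and a log2 fold change of 0.94.

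Orm2 had 181, 307 and 374 FPKM in Alb-Cre livers, against 14.8 and 19.3 FPKM in control livers. The groups lay far apart, the lowest Alb-Cre value being 9.34 times the highest control value. The means were 287 ± 98.1 FPKM (SD, n = 3) and 17.1 ± 3.19 FPKM (SD, n = 2), a ratio of 16.8 and a log2 fold change of 4.01. That was rank 1 among the 11687 genes ranked by log2 fold change.

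Orm3 had 17.4, 18.1 and 25.9 FPKM in Alb-Cre livers, against 3.29 and 3.39 FPKM in control livers. A pair of the Alb-Cre values was close together and the third stood higher, and the lowest was 5.13 times the highest control value. The means were 20.5 ± 4.70 FPKM (SD, n = 3) and 3.34 ± 0.0745 FPKM (SD, n = 2), a ratio of 6.13 and a log2 fold change of 2.56. By log2 fold change Orm3 was at rank 13 and Orm1 at rank 96.

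**Figure D1:**
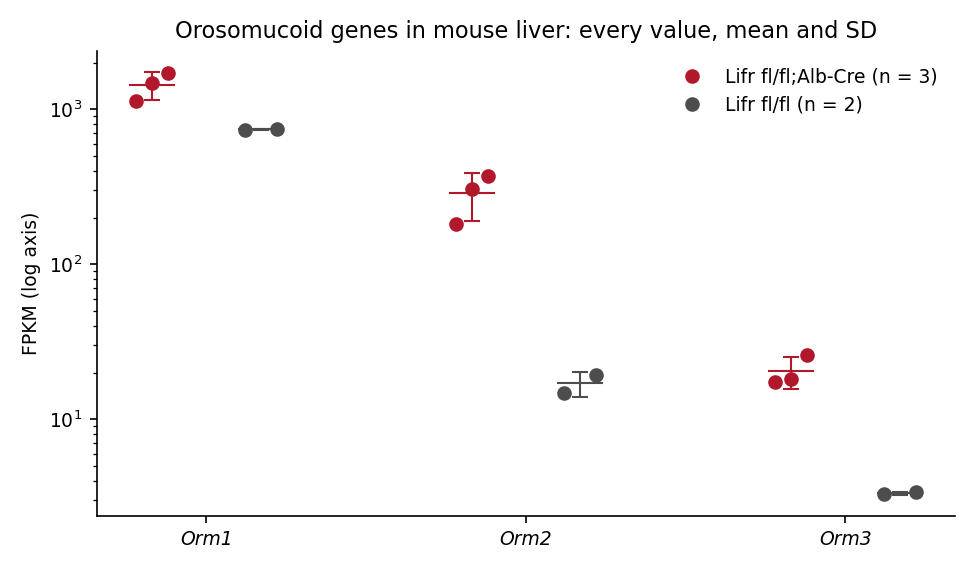
FPKM of Orm1, Orm2 and Orm3 on a log axis, with each value as a point, the group mean as a horizontal line and the SD as an error bar, for Lifr fl/fl;Alb-Cre (red, n = 3) and Lifr fl/fl (grey, n = 2). In each gene all red points lie above both grey points, and the gap is widest in Orm2 (181 to 374 against 14.8 to 19.3 FPKM) and narrowest in Orm1 (1128 to 1724 against 739 to 742 FPKM).

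In all 3 genes the groups did not overlap and the Alb-Cre values stood above. The same held for 1769 of the 11687 tested genes (15.1%), and as the genes were chosen on this contrast nothing is read from the count. Among the Alb-Cre values the coefficient of variation was 20.8% in Orm1, 34.2% in Orm2 and 23.0% in Orm3, beside a median of 10.7% over all tested genes. The highest Alb-Cre value was 1.53 times the lowest in Orm1, 2.07 times in Orm2 and 1.49 times in Orm3. Among the control values the coefficient of variation was 0.278% in Orm1, 18.6% in Orm2 and 2.23% in Orm3, each from 2 values. Whether the liver with the highest Orm2 also had the highest Orm1 cannot be read from values sorted within groups. In bulk liver, fewer cells of a type and less RNA per cell cannot be told apart, and the same holds for more of either.

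Orm1 was already among the most abundant messages of the control liver. It was at rank 43 of 23793 genes by mean FPKM in Alb-Cre livers and at rank 94 in control livers. Orm2 was at rank 269 in Alb-Cre livers and at rank 3290 in control livers, and Orm3 at rank 2875 and at rank 8197 in the same groups. These ranks count genes listed at 0, among them the abundant plasma protein genes Alb, Trf and Apoe.

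The order of the genes by fold was not their order by FPKM gained. Orm1 gained 702 FPKM between the group means, Orm2 270.1 FPKM and Orm3 17.1 FPKM. Orm1 thus made up 71.0% of the summed gain of 989.6 FPKM, Orm2 27.3% and Orm3 1.73%. The 3 genes together had 1750.4 FPKM in Alb-Cre livers and 761 FPKM in control livers, a ratio of 2.30.

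The makeup of orosomucoid RNA differed between the groups, with Orm2 taking a larger share in Alb-Cre livers. This follows from the unequal fold changes above. The genes differ in how much of their transcript is unique, and the bearing of this on the shares was not tested. Orm1 was 82.4% of the summed FPKM in Alb-Cre livers (73.8% to 89.7% over every pairing of the values) and 97.3% in control livers (97.0% to 97.6%). Orm2 was 16.4% in Alb-Cre livers (9.35% to 24.6%) and 2.25% in control livers (1.95% to 2.54%). Orm3 was 1.17% in Alb-Cre livers (0.824% to 1.94%) and 0.439% in control livers (0.430% to 0.448%). For none of the 3 genes did the ranges of the groups meet.

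**Figure D2:**
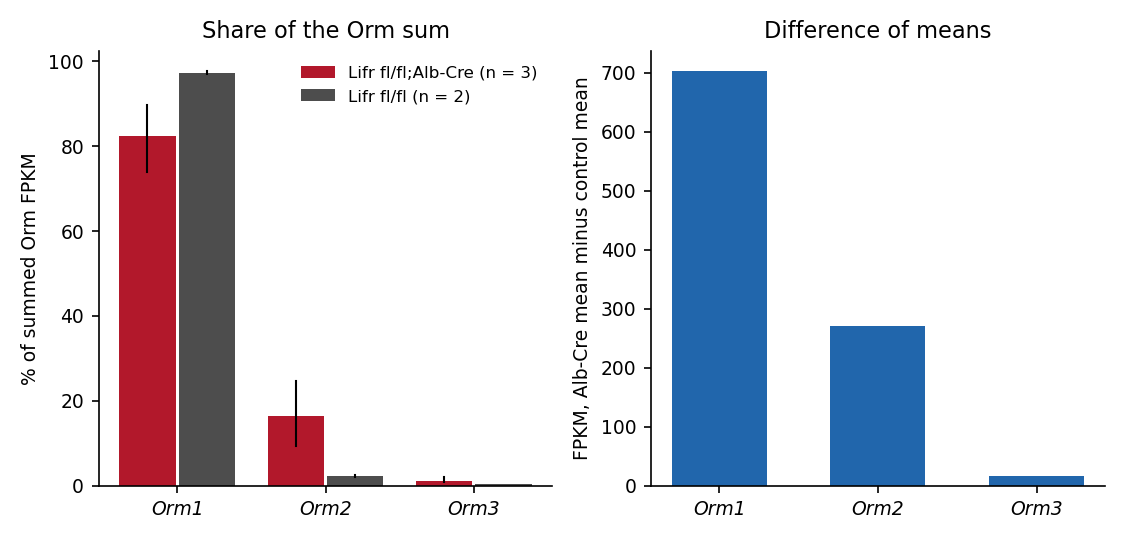
Left, share of each gene in the summed FPKM of Orm1 to Orm3 in percent, for Lifr fl/fl;Alb-Cre (red, n = 3) and Lifr fl/fl (grey, n = 2), where bars are from group means and black lines span every pairing of the values. Right, difference between the group means in FPKM: Orm1 holds 82.4% against 97.3% of the sum and has the largest difference (702 FPKM), while Orm2 holds 16.4% against 2.25% and differs by 270.1 FPKM.

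Ratios between the genes restate the same values pair by pair and add no separate support. Orm1 was 5.02 times Orm2 in Alb-Cre livers (3.02 to 9.55 over the pairings) and 43.3 times Orm2 in control livers (38.2 to 50.01). Orm2 was 14.0 times Orm3 in Alb-Cre livers (6.97 to 21.5) and 5.11 times Orm3 in control livers (4.37 to 5.88). Orm1 was 70.4 times Orm3 in Alb-Cre livers (43.5 to 99.0) and 222 times in control livers (218 to 226). No pair of genes kept its ratio, and the ranges of the groups did not meet in any pair.

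The genes beside the cluster had smaller fold changes than any Orm gene. Of 11 genes of the table within 250 kb of it, 5 were tested, and none was higher or lower by limma (1 had an unadjusted p under 0.05), with a median log2 fold change of 0.21. Ambp, which encodes another lipocalin, alpha-1-microglobulin, joined in 1 precursor to the protease inhibitor bikunin, had 1834 to 2259 FPKM in Alb-Cre livers and 1645 to 1650.2 FPKM in control livers (log2 fold change 0.27, limma adjusted p = 0.62). Atp6v1g1, a subunit of the proton-pumping vacuolar ATPase, had 46.5 to 54.7 FPKM in Alb-Cre livers and 48.9 to 52.4 FPKM in control livers (-0.04, adjusted p = 0.93). Col27a1, a fibrillar collagen gene and the nearest gene of the table before Orm1, had 2.46 to 3.90 FPKM and 5.66 to 6.45 FPKM in the same groups (-0.84, adjusted p = 0.16). Akna, the next gene after Orm2 in the table, had 0.855 to 1.15 FPKM in Alb-Cre livers and 0.705 to 0.854 FPKM in control livers (0.28, adjusted p = 0.73).

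**Figure D3:**
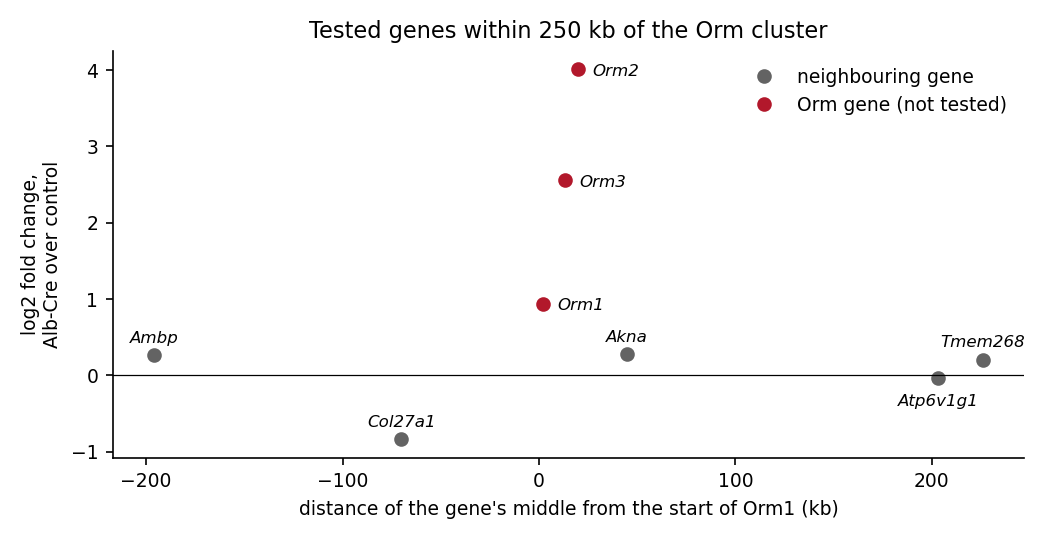
Log2 fold change, Lifr fl/fl;Alb-Cre over Lifr fl/fl, of the Orm genes (red, no test given) and of the 5 tested genes within 250 kb (grey), against the distance in kb of each gene's middle from the start of Orm1. The Orm genes lie at 0.94 to 4.01, and the neighbours lie between -0.84 and 0.28.

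Other acute phase genes were set beside the Orm genes from a list of 43, of which 42 were in the table and 40 were tested. The list, like the others below, was written with earlier results of these data known. By limma 10 were higher and 2 lower, beside 0.359% and 0.205% of all tested genes, and 28 did not pass. An unadjusted p under 0.05 was reached by 25 of 40, beside 9.63% of all tested genes. The median log2 fold change was 0.51, beside 0.03 over all tested genes, and 34 of 40 lay above 0, beside 54.9% of all tested genes. In 23 of 40 the Alb-Cre values lay wholly above the controls, beside 15.1% of all tested genes, and in 3 of 40 wholly below, beside 10.7%. Among those 3 is Hamp, which encodes the iron hormone hepcidin, with 244, 370.3 and 974 FPKM in Alb-Cre livers, against 1096 and 1425 FPKM in control livers. It did not pass (-1.49, limma adjusted p = 0.27), but did in draws that left out the highest Alb-Cre value (-2.06, adjusted p up to 0.0017). The 2 lower genes, C3 and Serpina3k, are listed at 0 in every Alb-Cre library although both are abundant plasma protein genes, and without them the median was 0.53. Without the filter on low values 5 members of the list were higher, and 3 to 4 were with 1 control value per gene left out.

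The acute phase genes nearest to Orm2 in log2 fold change were Lcn2, Saa2 and Saa1. Lcn2, an iron-siderophore-binding lipocalin, had 45.8, 70.0 and 87.9 FPKM in Alb-Cre livers, against 4.12 and 4.76 FPKM in control livers (3.86 ± 0.23, SE, limma adjusted p = 5.2e-05). Saa2, an apolipoprotein of high density lipoprotein in inflammation, had 431, 580 and 583 FPKM, against 24.9 and 70.3 FPKM in control livers (3.65 ± 0.35, adjusted p = 0.0014). Saa1 had 1014, 1164 and 1237 FPKM, against 75.2 and 188 FPKM in control livers (3.25 ± 0.31, adjusted p = 0.0014). In these 3 genes, as in Orm2, the groups lay far apart, but the control values of Saa1 and Saa2 differed more from each other than those of any Orm gene. The other serum amyloid A genes lay further from Orm2. Saa3 had 12.3 to 16.6 FPKM in Alb-Cre livers and 6.00 to 7.13 FPKM in control livers and was higher (1.07, limma adjusted p = 0.021). That call was lost without the filter on low values (adjusted p = 0.14) and with the fit run without a trend (0.073). It was also lost with 1 control value per gene left out. Saa4 had 169 to 214 FPKM in Alb-Cre livers and 114 to 146 FPKM in control livers and did not pass (0.58, adjusted p = 0.2).

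The next step down held Fgl1, with Apcs and then the genes near Orm1 further down. Fgl1, a fibrinogen-like protein secreted by hepatocytes, had 431 to 542 FPKM in Alb-Cre livers and 118 to 169 FPKM in control livers (1.79 ± 0.17, SE, limma adjusted p = 0.0014, and up to 0.07 with 1 control value per gene left out). Hpx, which encodes the heme scavenger hemopexin, was the gene past the threshold nearest to Orm1, with 4680 to 5332 FPKM in Alb-Cre livers and 2513 to 2719 FPKM in control livers (0.92, adjusted p = 0.032). Hp, the hemoglobin scavenger haptoglobin, had 2807 to 3465 FPKM in Alb-Cre livers and 1350.2 to 1766 FPKM in control livers (0.99, adjusted p = 0.04). The calls of Hpx and Hp were lost without the filter on low values (limma adjusted p = 0.37 and 0.34) and with 1 control value per gene left out. That of Hp was also lost with a pseudocount of 1 FPKM (0.052) and with the fit run without a trend (0.078). It was lost as well in a draw with an Alb-Cre value left out (0.056). Fga, Fgb and Fgg, which encode the chains of fibrinogen, had log2 fold changes of 0.01, 0.04 and 0.04 and did not pass. The metallothionein genes Mt1 and Mt2 had log2 fold changes of 1.78 and 2.89 but did not pass (limma adjusted p = 0.41 and 0.21). Mt1 had 46.7, 178 and 386 FPKM in Alb-Cre livers, against 41.8 and 44.1 FPKM in control livers, and Mt2 had 17.3, 79.1 and 222 FPKM, against 8.73 and 9.29 FPKM in control livers. In draws that left out the lowest Alb-Cre value both were past the threshold, Mt1 at 2.61 (adjusted p up to 0.0023) and Mt2 at 3.87 (up to 0.001).

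**Figure D4:**
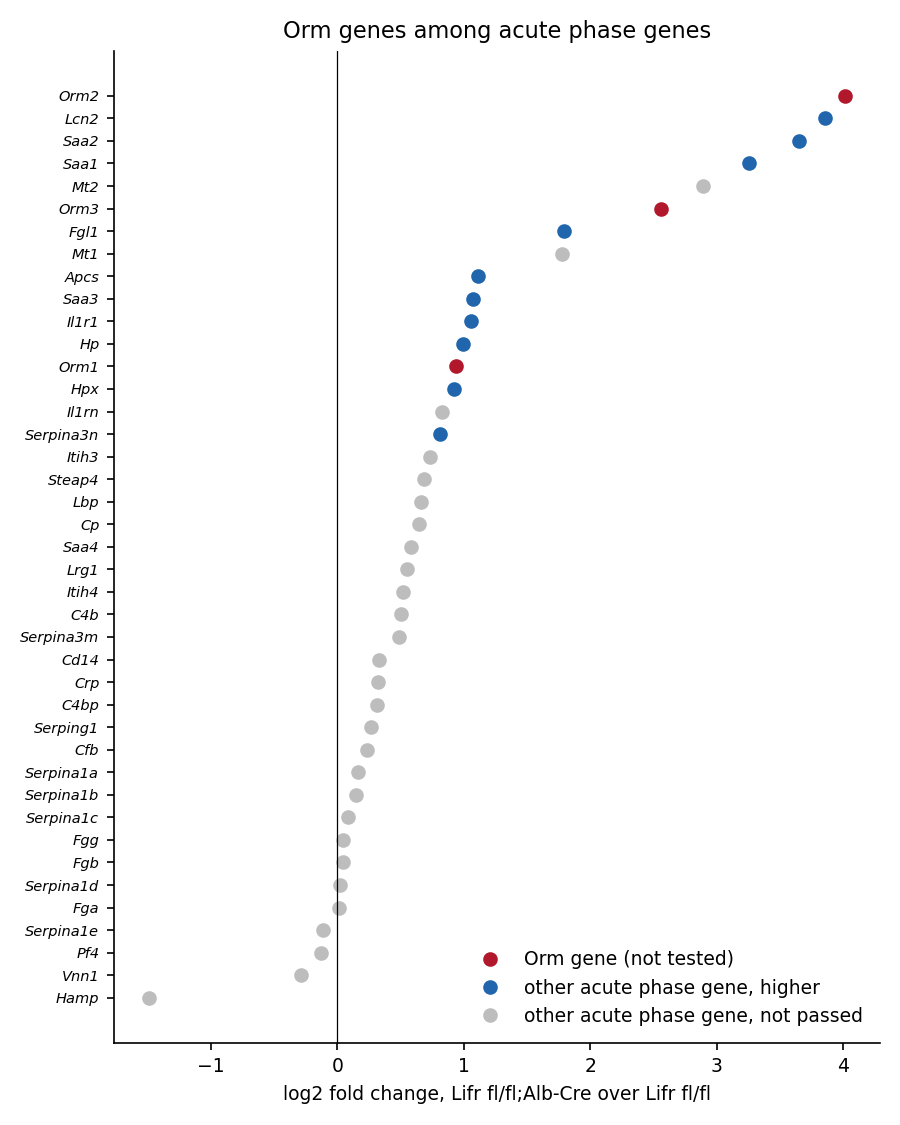
Log2 fold change, Lifr fl/fl;Alb-Cre over Lifr fl/fl, of Orm1 to Orm3 (red, no test given) and of 38 other acute phase genes, in order, with those that were higher by limma in blue and those that did not pass in grey. C3 and Serpina3k, listed at 0 in every Alb-Cre library, are left out. Orm2 stands at the top (4.01), next to Lcn2 (3.86), and Orm1 lies between Hp (0.99) and Hpx (0.92).

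Over all genes past the threshold in the same direction, likeness to each Orm gene was taken as the absolute difference of log2 fold changes, from means of 3 and 2 libraries. Besides Hpx, the nearest to Orm1 were Slc37a1, a glucose-6-phosphate transporter gene (2.67 to 2.85 FPKM in Alb-Cre livers and 1.38 to 1.44 FPKM in control livers, 0.91), and Prg4, which encodes the lubricant glycoprotein lubricin (20.4 to 24.0 FPKM and 9.82 to 12.4 FPKM, 0.98). Nearest to Orm2 were Lcn2, Snora23 and Saa2. Snora23, a small nucleolar RNA, is listed at 0 in both control libraries and at 0.761 to 2.05 FPKM in Alb-Cre livers, so no fold is given. Nearest to Orm3 were the mucosal peptide gene Tff3 (11.5 to 43.4 FPKM in Alb-Cre livers and 3.79 to 3.84 FPKM in control livers, 2.40), the chemokine gene Cxcl14 (5.13 to 17.1 FPKM and 0.904 to 1.16 FPKM, 2.94) and 9030619P08Rik (7.30 to 18.5 FPKM and 2.46 to 2.97 FPKM, 2.097). All of these passed in the fit described, with limma adjusted p between 5.2e-05 and 0.043, though only Lcn2 and Saa2 among them did so under every setting tried.

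The negative acute phase genes, whose products fall in plasma during inflammation, had a median near that of all genes. Of 17 genes, 15 were tested, none was higher or lower by limma (2 had an unadjusted p under 0.05), and the median log2 fold change was -0.04. Apoa2, an apolipoprotein of high density lipoprotein, had 8645 to 9326 FPKM in Alb-Cre livers and 10319.6 to 10432 FPKM in control livers (-0.23, adjusted p = 0.69). Apoa1, the main apolipoprotein of the same particle, had 5774 to 8513 FPKM and 6919 to 7544 FPKM in the same groups (-0.12, adjusted p = 0.87).

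Message for most ligands that raise orosomucoid was too low in these livers to be tested. Of 12 ligand genes 11 were in the table and 4 were tested, and none was higher or lower by limma (1 had an unadjusted p under 0.05). Il6 was at or under 0.118 FPKM in Alb-Cre livers and at or under 0.159 FPKM in control livers, and Lif, the ligand of Lifr, at or under 0.00889 FPKM and 0.0167 FPKM. Ctf1, which encodes cardiotrophin-1, a ligand of LIFR and gp130, was the 1 with an unadjusted p under 0.05, with 2.40 to 3.50 FPKM in Alb-Cre livers and 3.56 to 4.11 FPKM in control livers (-0.44, adjusted p = 0.49). Il1a, which encodes interleukin-1α, had 2.49 to 3.84 FPKM in Alb-Cre livers and 2.37 to 2.79 FPKM in control livers (0.30, adjusted p = 0.67). Il1b, which encodes interleukin-1β, had 1.46 to 2.42 FPKM in Alb-Cre livers and 0.940 to 1.84 FPKM in control livers (0.53, adjusted p = 0.6). Il18, a cytokine of the interleukin-1 family, had 9.79 to 11.1 FPKM and 8.91 to 10.8 FPKM in the same groups (0.10, adjusted p = 0.84). Message in liver does not measure cytokine that reaches it from blood.

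Among 11 tested receptor genes of these ligands, 1 was higher, 1 lower (Lifr itself) and 9 did not pass, with a median of 0.18. Over all tested genes 0.359% were higher and 0.205% lower. An unadjusted p under 0.05 was reached by 4 of the 11, beside 9.63% of all tested genes. Il1r1, the signaling receptor of interleukin-1, had 19.2, 23.4 and 24.3 FPKM in Alb-Cre livers, against 10.3 and 11.0 FPKM in control livers (1.06 ± 0.14, SE, limma adjusted p = 0.01). The groups did not overlap, and the call was lost without the filter (adjusted p = 0.062) and with 1 control value per gene left out (up to 0.28). Il6st, which encodes gp130, had 35.7 to 42.2 FPKM in Alb-Cre livers and 34.7 to 35.1 FPKM in control livers (0.18, adjusted p = 0.68), and Il6ra, the interleukin-6 receptor, 15.2 to 26.8 FPKM and 12.0 FPKM in both controls (0.61, adjusted p = 0.41).

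Of 18 genes of JAK-STAT signaling and its feedback, none was higher and 1 was lower, with a median log2 fold change of 0.00. Single genes ranged from -1.26 to 0.57. An unadjusted p under 0.05 was reached by 4 of 18, beside 9.63% of all tested genes. In 3 of 18 the Alb-Cre values lay wholly below the controls, beside 10.7% of all tested genes, and in 1 wholly above, beside 15.1%. Junb, an AP-1 factor gene that gp130 cytokines induce, had 13.9 to 17.7 FPKM in Alb-Cre livers and 26.7 to 30.6 FPKM in control livers (-0.83 ± 0.14, SE, limma adjusted p = 0.038). It failed the threshold without the filter and without the trend (up to 0.15), and with 1 control value per gene left out (up to 0.51). Socs3, the feedback inhibitor of gp130, had 3.39 to 5.19 FPKM in Alb-Cre livers and 5.86 to 7.74 FPKM in control livers, and did not pass (-0.70, adjusted p = 0.21, though 0.04 in 1 draw with an Alb-Cre value left out). Stat3, the main transcription factor of this pathway, had 28.4 to 34.6 FPKM and 29.0 to 29.2 FPKM in the same groups (0.12, adjusted p = 0.79). Stat3 and Socs3 were named after their values were seen, as were Il6st, Il6ra, Il6, Lif, Il1a and Il1b.

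None of 15 tested genes for C/EBP and other hepatocyte factors of the orosomucoid promoter passed (limma, 2 with an unadjusted p under 0.05, median -0.0044). Cebpa had 183 to 250.3 FPKM in Alb-Cre livers and 252 to 332 FPKM in control livers (-0.37, adjusted p = 0.54). Hnf4a, a nuclear receptor that maintains hepatocyte identity, had 177 to 220.0 FPKM and 160.1 to 173 FPKM in the same groups (0.23, adjusted p = 0.63). Cebpb, whose product binds the TTGCNNAA motif marked in both promoters, had 89.4 to 120 FPKM in Alb-Cre livers and 86.6 to 169 FPKM in control livers (-0.23, adjusted p = 0.8), while Cebpd, another C/EBP gene, had 3.16 to 5.62 FPKM and 2.61 to 2.71 FPKM in the same groups (0.58, adjusted p = 0.41). Both were named after their values were seen. These are messages and say nothing of the activity of the factors.

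A list held the glucocorticoid receptor gene, the cortisone reductase gene Hsd11b1 and glucocorticoid-induced genes. Of these, 20 of 20 had a log2 fold change above 0, beside 54.9% of all tested genes, with a median of 0.55. The list was written with earlier results of these data known, so nothing is read from that count. An unadjusted p under 0.05 was reached by 10 of 20, beside 9.63% of all tested genes. By limma 3 of the 20 were higher and none lower, beside 0.359% and 0.205% of all tested genes. Besides Lcn2, which is also on the acute phase list, these were Tsc22d3, which encodes the glucocorticoid-induced leucine zipper protein, and Ddit4, an inhibitor of mTOR signaling. Tsc22d3 had 59.8, 63.4 and 106 FPKM in Alb-Cre livers, against 28.0 and 33.8 FPKM in control livers (1.26 ± 0.23, SE, limma adjusted p = 0.048), and Ddit4 had 3.44 to 4.97 FPKM and 1.79 to 2.18 FPKM in the same groups (1.09 ± 0.18, adjusted p = 0.04). Both calls were lost under several settings, with adjusted p up to 0.24 for Tsc22d3 and 0.2 for Ddit4, and up to 0.66 and 0.59 with 1 control value per gene left out. The list includes Mt1 and Mt2, which are acute phase genes as well.

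None of 15 NF-κB subunits, kinases and inhibitors passed (limma, 2 with an unadjusted p under 0.05), with a median of 0.07 and 10 above 0. Chuk, the kinase IKKα, had 54.5 to 62.1 FPKM in Alb-Cre livers and 53.0 to 60.5 FPKM in control livers (0.05, adjusted p = 0.91), and Nfkbia, the inhibitor IκBα, had 23.3 to 37.2 FPKM and 29.7 to 30.6 FPKM in the same groups (-0.01, adjusted p = 1). Messages of these components do not measure the activity of the pathway.

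**Figure D5:**
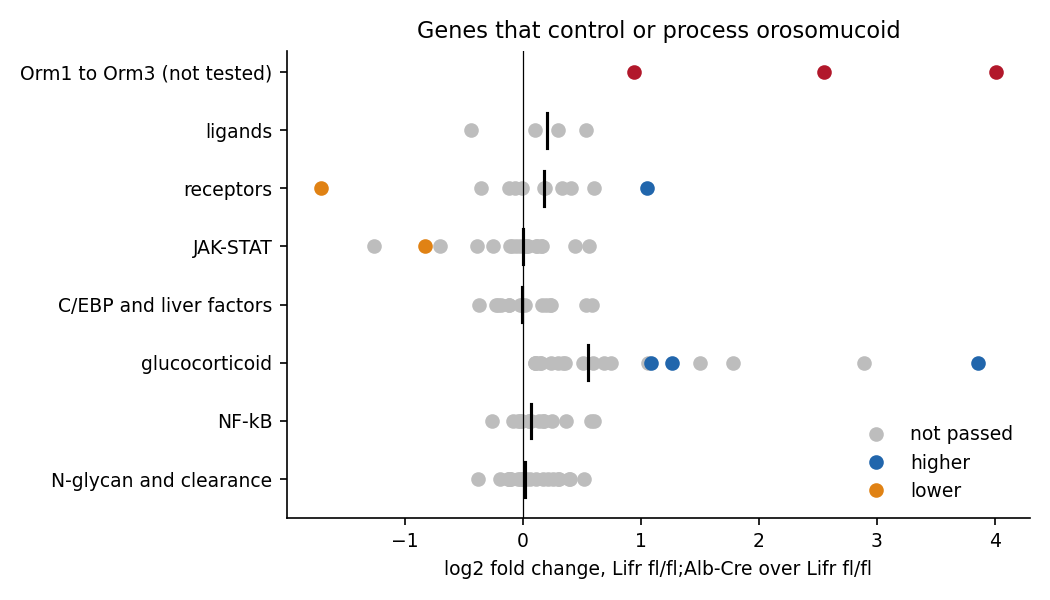
Log2 fold change, Lifr fl/fl;Alb-Cre over Lifr fl/fl, of Orm1 to Orm3 (red, no test given) and of the tested genes of 7 lists on orosomucoid control and processing, with genes that were higher by limma in blue, lower in orange and not passed in grey, and the list median as a black bar. All 20 glucocorticoid list genes lie right of 0 (median 0.55), while the medians of the other lists lie between -0.0044 and 0.20. The lists were written with earlier results of these data known.

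Among the relatives and the processing enzymes of orosomucoid 1 gene passed. Of 11 tested lipocalin genes other than Orm, Lcn2 alone was higher by limma and none was lower. Over all tested genes 0.359% were higher and 0.205% lower. Lcn2 is also on the acute phase and glucocorticoid lists, so it is no separate result here. The median of the lipocalin genes was -0.05. Single lipocalin genes ranged from -1.30 to 3.86. An unadjusted p under 0.05 was reached by 3 of the 11, beside 9.63% of all tested genes. Of 22 tested genes for N-glycan building, sialylation and uptake of desialylated glycoproteins, none passed (5 of 22 had an unadjusted p under 0.05, beside 9.63% of all tested genes) and the median was 0.02. Asgr1 and Asgr2, the subunits of the receptor that clears desialylated orosomucoid, had log2 fold changes of 0.00 and -0.12 and limma adjusted p of 1 and 0.82. Asgr1 had 273 to 364 FPKM in Alb-Cre livers and 313 to 318 FPKM in control livers. Of 5 genes for proteins reported to bind orosomucoid, 4 were tested and none passed (1 had an unadjusted p under 0.05).

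The tested markers of macrophages and neutrophils had log2 fold changes above 0, and most did not pass the test. All 14 Kupffer cell or macrophage markers lay above 0 (median 0.48), beside 54.9% of all tested genes, and none passed by limma (9 of 14 had an unadjusted p under 0.05, beside 9.63% of all tested genes). In 11 of 14 the Alb-Cre values lay wholly above the controls, beside 15.1% of all tested genes, and in 0 wholly below, beside 10.7%. The summed level of these markers lay between 447 and 641 FPKM in Alb-Cre livers and between 354 and 396 FPKM in control livers, taken from the lowest and highest values of each gene. Of 14 neutrophil markers 13 were in the table and only 4 were tested, all above 0 (median 0.97). An unadjusted p under 0.05 was reached by 2 of 4, beside 9.63% of all tested genes. In 3 of 4 the Alb-Cre values lay wholly above the controls, beside 15.1%, and in 0 wholly below. S100a9 alone was higher, beside 0.359% of all tested genes. It had 2.69 to 4.04 FPKM in Alb-Cre livers and 0.850 to 1.30 FPKM in control livers (1.59 ± 0.22, SE, limma adjusted p = 0.018). That call was lost without the filter (0.15) and with 1 control value per gene left out (up to 0.34). The summed neutrophil markers lay between 7.74 and 13.7 FPKM in Alb-Cre livers and between 3.69 and 5.66 FPKM in control livers. Of the granule genes, Camp and Ngp are listed at 0 in both control libraries and reach 0.113 and 0.156 FPKM in Alb-Cre livers. The part of these cells in the Orm, Lcn2, serum amyloid A and glucocorticoid gene values was not tested.

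The markers of the other cell types did not pass by limma: 0 of 12 endothelial markers (median -0.06, 0 with an unadjusted p under 0.05), 0 of 12 of stellate cells or fibroblasts (-0.08, 1), 0 of 5 of cholangiocytes (0.03, 1), 0 of 4 of T, B or NK cells (-0.15, 0) and 0 of 2 of adipocytes (0.35, 1). Plin1 and Lep, on the adipocyte list, are listed at 0 in all 5 libraries.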

How the data were processed

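Liver RNA of 3 Lifr fl/fl;Alb-Cre and 2 Lifr fl/fl mice was sequenced. After a quality check (FastQC 0.11.5), the authors aligned the reads to the mm10 genome using TopHat2 2.1.1, kept uniquely mapped reads with SAMtools 1.5 and estimated FPKM per gene with Cufflinks 2.2.1 on a RefSeq annotation. The deposited table holds these FPKM values. It also holds the authors' own comparison (a log2 fold, a p-value and a call), which was not used. Depth per library is unknown, so precision rests on the spread between mice. As each group's values are sorted within each gene, no scaling, pairing or leaving out of a named mouse was possible; shuffling values within groups changed 0 calls.

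Of 23793 genes, 11687 had a mean of at least 0.5 FPKM and were tested two-sided with limma 3.58.1 in R 4.3.3 (lmFit, eBayes with a trend) on log2(FPKM + 0.1), adjusted by Benjamini-Hochberg over all of them, after the script was tested on simulated data. The paper's Cuffdiff comparison needs reads and was replaced by limma. The members, the 12 gene lists, the 8 marker lists and the rule for named genes were chosen with earlier results of these data known. Of 300 list entries, 295 matched the table by symbol or older symbol. Named genes are the Orm genes, Lifr, up to 4 members of each list past the threshold with the largest change and not listed at 0 in a whole group (or, where none passed, the 2 most abundant), and the 3 genes past the threshold nearest to each Orm gene in log2 fold change. Some genes that meet it are not printed, and members printed outside it, such as Hp, Saa3, Saa4, Hamp, Fga, Mt1, Akna and Camp, were named after their values were seen. Transcript sequences are from GENCODE M21 (GRCm38) and promoters from RefSeq (GRCm38.p6). Alternatives were pseudocounts of 1 and 0.01 FPKM, no filter, a mean of at least 1 FPKM, eBayes without a trend, the median shift taken out, and 1 value per gene left out of 1 group at random, in 5 draws for each group.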

Additional observations from a re-analysis of the deposited data

How the results depend on the processing

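The log2 fold changes of the Orm genes stayed within 0.92 to 0.96 (Orm1), 3.94 to 4.07 (Orm2) and 2.29 to 2.62 (Orm3) over pseudocount, scaling and the log2 ratio of means, and the 2.29 of Orm3 came from a pseudocount of 1 FPKM. With each value left out in turn they ranged over 0.80 to 1.11, 3.79 to 4.31 and 2.38 to 2.66. The counts over all genes were less stable: 11 higher and 5 lower genes without the filter on low values, where 17270 genes entered, and 21 and 11 with eBayes without a trend, against 42 and 24. With 1 value per gene left out at random, 6 to 86 genes were higher and 8 to 48 lower, and the lowest counts came from draws that left 1 control, which is then assumed to vary like the other group. Of the acute phase genes other than Orm, 5 were higher without the filter, 3 to 13 were higher with a value left out, and 2 to 3 were lower. The cause of these shifts was not tested. Of 19 single genes named as past the threshold, Apcs not among them, 3 (Lcn2, Saa2 and Saa1) stayed past it under every setting, and 0 changed direction. Apcs was not followed over the settings. Of 29 others, Fga and Asgr1 turned to -0.014 and -0.023 once the median shift was taken out. With a value left out, genes near 0 crossed it: Fga (-0.023 to 0.066), Fgg (-0.015 to 0.098), Asgr1 (-0.10 to 0.11), Nfkbia (-0.16 to 0.18), Chuk (-0.042 to 0.15), Il18 (-0.033 to 0.24) and Atp6v1g1 (-0.11 to 0.011). No paired analysis was possible because the values are sorted within groups and a column follows no single mouse. With 3 and 2 livers, levels of low genes such as the ligands, and reads shared between the Orm transcripts, limit what can be resolved.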
